A study of Mus musculus with 51 samples.

Results

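The genes described here are those of the replicative helicase and of its loading onto DNA: Mcm2, Mcm3, Mcm4, Mcm5, Mcm6, Mcm7, Mcm10, Cdt1, Cdc6 and Gmnn. They were taken by name, without regard to their values, with every probe set of the array that is annotated to 1 of these genes alone. All 10 genes were on the array, with 16 probe sets of 22626 in all, and these were 10 of 11807 named genes. The transcripts were measured in mammary glands (MG) of 2 inbred mouse strains, BALB/c and C57BL/6, on 43 arrays, and in nucleated cells of cardiac blood on 8 arrays. Virgin females of 8 weeks were exposed to whole-body X-rays 4 times at weekly intervals, with 1.8 Gy each time (HD), 7.5 cGy each time (LD) or sham handling, and the fourth pair of glands was taken without its lymph node at 1 month or 4 hr after the last exposure. BALB/c MG arrays numbered 4 for HD at 1 month, 2 for LD at 1 month, 3 for sham at 1 month, 4 for HD at 4 hr, 4 for LD at 4 hr and 3 for sham at 4 hr. C57BL/6 MG arrays numbered 4 in every such group except sham at 4 hr, with 3. Blood came from 4 BALB/c and 4 C57BL/6 unirradiated females of 9 weeks. Each array held the RNA of 1 mouse, and the oestrous cycle was not synchronised.

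The products of Mcm2 to Mcm7 form a ring that unwinds DNA at the replication fork. In late mitosis and G1, Cdc6 and Cdt1 load this ring in an inactive form at origins marked by the origin recognition complex, a step called licensing. Geminin, the product of Gmnn, binds Cdt1 after S phase has begun and prevents a second loading, while Mcm10 helps to turn loaded rings into moving helicases. E2F factors are known to drive many of these genes as cells enter S phase, so their transcripts are used as marks of cells that are cycling or prepared to cycle, and in the virgin gland these are mostly epithelial.

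Promoters of the members were read because the transcripts varied together from array to array, as described further on. Windows of 250 bases before to 50 bases after the annotated start were taken from RefSeq on build GRCm38.p6, and 8 of the 10 genes had 1, with 2 starts for Mcm7. Each window was searched on both strands for the E2F-type letters TTTCCCGC, TTTCGCGC, TTTGCCGC and TTTGGCGC, where a match on 1 strand may overlap a match on the other. Of all 32851 windows in the table, 744 (2.26%) held at least 1 of them. Mcm3, Mcm5, Mcm6, Mcm7 (at the first start), Cdt1 and Cdc6 held them, while Mcm2, Mcm10 and the second start of Mcm7 did not. With the first letter dropped, the motif stood in 9.57% of all windows and in the same count of 6 members. Mcm6 had 3 matches, at -110 to -103 and -47 to -40 on its own strand and at -106 to -99 on the other, of which the first and the last named overlap, and in Mcm5 matches at -153 to -146 and -149 to -142 overlap in the same way. Mcm3 also had a match on its own strand at 39 to 46 after the start, left in lower case in its stretch below. Mcm7 also had 1 on its own strand at 17 to 24 after the start, outside its stretch below. The 6 stretches below show 1 match of each gene, or 2 where they overlap, in capitals, with up to 20 bases on either side, on the strand of the gene.
Mcm3, chr1:20820266-20820313, minus strand: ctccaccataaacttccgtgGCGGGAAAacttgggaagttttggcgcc
Mcm5, chr8:75109336-75109387, plus strand: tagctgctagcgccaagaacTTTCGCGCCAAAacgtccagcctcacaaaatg
Mcm6, chr1:128359784-128359835, minus strand: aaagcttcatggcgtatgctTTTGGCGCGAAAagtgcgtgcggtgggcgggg
Mcm7, chr5:138172021-138172068, minus strand: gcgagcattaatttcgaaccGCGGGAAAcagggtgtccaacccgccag
Cdt1, chr8:122568027-122568064, plus strand: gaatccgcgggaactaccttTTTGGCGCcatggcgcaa
Cdc6, chr11:98907993-98908040, plus strand: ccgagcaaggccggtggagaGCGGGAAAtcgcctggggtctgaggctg
A match is a description of these letters and was not tested as a binding site. Mcm3 and Cdt1 have the printed match just after the annotated start of their window. Mcm5, Mcm6, Mcm7 and Cdc6 have it upstream of that start. For Mcm7 and Cdc6 the annotated gene reaches farther upstream than that start, to chr5:138172111 and chr11:98907709. Both of their printed stretches therefore lie within the gene.

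**Figure D1:**
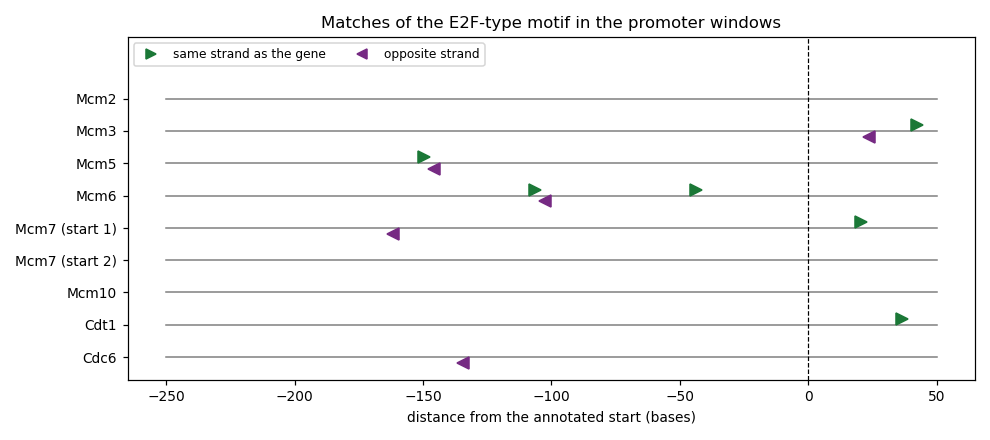
Matches of the E2F-type letters in the promoter windows of the members, by distance from the annotated start in bases. Triangles that point right lie on the strand of the gene and those that point left on the other strand, and the windows of Mcm2, Mcm10 and the second start of Mcm7 hold none.

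Values are log2 signals after RMA, so a difference of 1 is a doubling, and levels of different probe sets cannot be set against each other. The median of all probe sets lay between 6.16 and 6.36 in MG arrays and between 4.61 and 4.70 in blood arrays, so no level was compared between the tissues. All arrays carried the markers of their tissue, but 8 also held transcripts of another tissue at more than 2 log2 units above the median array: muscle in BALB/c HD 4 hr replicate 1, BALB/c HD 1 month replicate 3, BALB/c sham 4 hr replicate 1 and C57BL/6 sham 1 month replicate 2, B and T cells in BALB/c HD 1 month replicate 1, epidermis in BALB/c LD 4 hr replicate 1, and liver in replicate 2 of BALB/c blood and replicate 4 of C57BL/6 blood. The last of these stood apart from all other arrays, with a liver list 9.59 above the median blood array, B cell and granulocyte lists at -1.94 and -1.55, and a median correlation with the other blood arrays of 0.81, where each other array had 0.97 or more with those of its tissue. C57BL/6 HD 1 month replicate 3 held lymphocyte transcripts below that limit, with B and T cell lists 1.65 and 1.78 above the median array. The MG arrays of each strain were run on a plate of their own, so plate and strain cannot be told apart in MG. Within a plate, sham arrays stood in columns 1 to 5, HD 1 month and LD 4 hr arrays in columns 9 to 12, and LD 1 month and HD 4 hr arrays in columns 5 to 8. Plate column and group therefore cannot be told apart between HD and LD of 1 time or between the times of 1 irradiated group, and irradiated and sham arrays share a column only for LD at 1 month in C57BL/6. A probe set is called here at an adjusted p under 0.05 over all probe sets in limma, and groups are called apart when no array of 1 group reaches into the range of the other.

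At 4 hr after HD, BALB/c glands had lower values than sham glands for nearly all members, and the 1 call was a probe set of Cdt1, the loader. The median log2 fold change of the 16 probe sets was -0.67, against 0.00 over all probe sets, and 15 of them were below 0. Of the 16, 1 was called and it was lower, where 2.77% of all probe sets were called lower and 5.14% in either direction. Without an adjustment, 9 were lower at p under 0.05, against 11.2% of all. In 5 probe sets the HD and sham arrays were apart with HD lower, against 9.3% of all. A looser rule, an absolute log2 fold change over 0.58 with an unadjusted p under 0.01 after HD or 0.1 after LD, took 6 as lower, against 2.57% of all.

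Cdt1 at probe set 1424144_at had 4.68, 5.0, 4.33 and 4.66 in the HD arrays and 5.90, 5.97 and 5.48 in the sham arrays. Every HD array was below every sham array, and the difference was -1.11 (SE 0.28, adjusted p = 0.0301). At its brighter probe set 1424143_a_at Cdt1 had 7.23, 6.99, 6.50 and 6.98 in HD and 8.24, 8.04 and 7.91 in sham glands. These groups were apart too, with a difference of -1.14 (SE 0.36, adjusted p = 0.0709) that was not called. The third probe set, 1455791_at, lay between 3.64 and 4.49 in all MG arrays and differed by 0.06 (SE 0.14, adjusted p = 0.873). The call of Cdt1 held under 8 of 15 other settings and was lost without either of 2 HD arrays or 2 sham arrays, which are named with the settings in the closing part.

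Mcm6, a subunit of the ring, had the largest difference of the members, and it missed the threshold. Its values were 5.76, 6.51, 5.26 and 6.16 in HD and 8.47, 7.96 and 6.41 in sham glands, a difference of -1.69 (SE 0.48, adjusted p = 0.051). Sham replicate 3 was below HD replicate 2, so the groups overlapped. Mcm2, another ring subunit, had 4.91, 5.02, 4.79 and 5.36 at probe set 1448777_at in HD and 6.98, 6.32 and 5.60 in sham glands, and the groups were apart (difference -1.28, SE 0.38, adjusted p = 0.0567). At its other probe set the difference was -0.55 (SE 0.27, adjusted p = 0.259) and the groups overlapped. Mcm7 had 7.24, 6.85, 7.41 and 7.58 in HD and 8.26, 8.08 and 7.90 in sham glands, with no overlap (difference -0.81, SE 0.24, adjusted p = 0.0578). Mcm4 had 6.87, 6.92, 6.55 and 6.98 in HD and 7.90, 8.04 and 7.07 in sham glands, also apart (difference -0.84, SE 0.27, adjusted p = 0.0756). Mcm5 had 5.13, 5.07, 4.72 and 5.24 in HD and 7.04, 6.38 and 5.14 in sham glands (difference -1.15, SE 0.41, adjusted p = 0.108). Its sham replicate 3 lay among the HD arrays. The smallest differences were those of Cdc6, the second loader (-0.07, SE 0.19), of Mcm10, at 1433408_a_at (-0.23, SE 0.15), of Mcm3, at 1426652_at (-0.38, SE 0.24), and of Gmnn, the inhibitor (-0.40, SE 0.22). The probe sets of Cdc6, Mcm10 and Mcm3 had low signals, above only 23.8%, 32.25% and 34.15% of all probe sets in MG. The part of low signal in these small differences was not tested.

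Signs of the gland's makeup moved with this comparison. The mean of 11 luminal epithelial markers, relative to the median MG array, was between -2.34 and -0.93 in HD and between -0.54 and -0.08 in sham glands of BALB/c at 4 hr. The 7 myoepithelial markers lay between -1.05 and -0.23 in HD and between -0.32 and 0.20 in sham glands. Other lists ran the other way. White adipocyte markers lay between 0.13 and 0.30 in HD and between -0.18 and -0.03 in sham glands. Erythroid markers lay between 0.20 and 0.35 in HD and between -0.04 and 0.19 in sham glands. Liver markers lay between 0.1481 and 0.4491 in HD and between 0.034 and 0.1475 in sham glands. In bulk tissue fewer cells of a type and less RNA per cell cannot be told apart, and the part of these markers in the members' values was not tested. Over all 43 MG arrays, with strain means removed, the mean of the members correlated with the luminal list at r = 0.24 and with the myoepithelial list at r = 0.35.

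At 4 hr after LD, all 16 probe sets had lower values than sham in BALB/c, and none was called. The median was -0.40, against -0.01 over all probe sets, 51.3% of which were below 0. No probe set of the whole array was called in this comparison (0%), and 5 members were lower at an unadjusted p under 0.05, against 4.53% of all. The looser rule took 3 of the 16 as lower, against 0.743% of all. These 3 were Mcm5 and both of the brighter Cdt1 probe sets. Cdt1 at 1424143_a_at had 6.69, 7.60, 6.74 and 7.45 in LD arrays, all below the 8.24, 8.04 and 7.91 of the sham arrays (difference -0.94, SE 0.36, adjusted p = 0.405). At 1424144_at it had 4.77, 5.32, 4.62 and 5.02 in LD arrays, again below all sham arrays (difference -0.85, SE 0.28, adjusted p = 0.336). Cdc6 had 4.07, 4.54, 4.07 and 4.30 in LD and 4.66, 4.73 and 4.58 in sham glands (difference -0.41, SE 0.19, adjusted p = 0.524). These 3 probe sets were the ones whose groups were apart, against 4.93% of all. Mcm5 had 4.85, 5.92, 4.88 and 5.53 in LD and 7.04, 6.38 and 5.14 in sham glands, with an overlap (difference -0.89, SE 0.41, adjusted p = 0.504). In these LD glands the luminal list was higher than in sham glands, between 0.00 and 0.18 against -0.54 to -0.08, which is the other direction from the members. The T cell list lay between -0.18 and -0.08 in LD and between -0.03 and 0.10 in sham glands. White adipocyte markers lay between -0.002 and 0.07 in LD and between -0.18 and -0.03 in sham glands. The macrophage list lay between -0.26 and 0.09 in LD and between 0.00 and 1.08 in sham glands, which overlapped. The part of these cells in the members' values was not tested. The comparisons of LD and of HD at 4 hr share the 3 sham arrays, and their differences are not independent of each other.

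HD and LD glands of BALB/c at 4 hr were also compared directly, which leaves the sham arrays out. The median was -0.21, 12 of 16 probe sets were lower after HD, and 0 were called, where 7.42% of all probe sets were called. The median was -0.05 without LD replicate 2, -0.32 without LD replicate 1 and -0.10 with arrays centred on their medians. At an unadjusted p under 0.05, 3 probe sets were lower, against 12.8% of all. Mcm6 had 5.76, 6.51, 5.26 and 6.16 in HD and 6.35, 7.57, 6.27 and 7.35 in LD arrays (difference -0.96, SE 0.45, adjusted p = 0.201). The ranges overlapped, since HD replicate 2 exceeded 2 of the LD arrays. Mcm2 at 1448777_at had 4.91, 5.02, 4.79 and 5.36 in HD and 5.89, 5.93, 5.43 and 6.0 in LD arrays (difference -0.79, SE 0.35, adjusted p = 0.172). It was the 1 member probe set with the groups apart and HD lower, against 9.72% of all. Cdc6 had 4.45, 4.98, 4.54 and 4.37 in HD glands and ran the other way (difference 0.34, SE 0.18, adjusted p = 0.262). The luminal list lay between -2.34 and -0.93 in HD and between 0.00 and 0.18 in LD glands, and the myoepithelial list between -1.05 and -0.23 in HD and between 0.01 and 0.24 in LD glands.

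**Figure D2:**
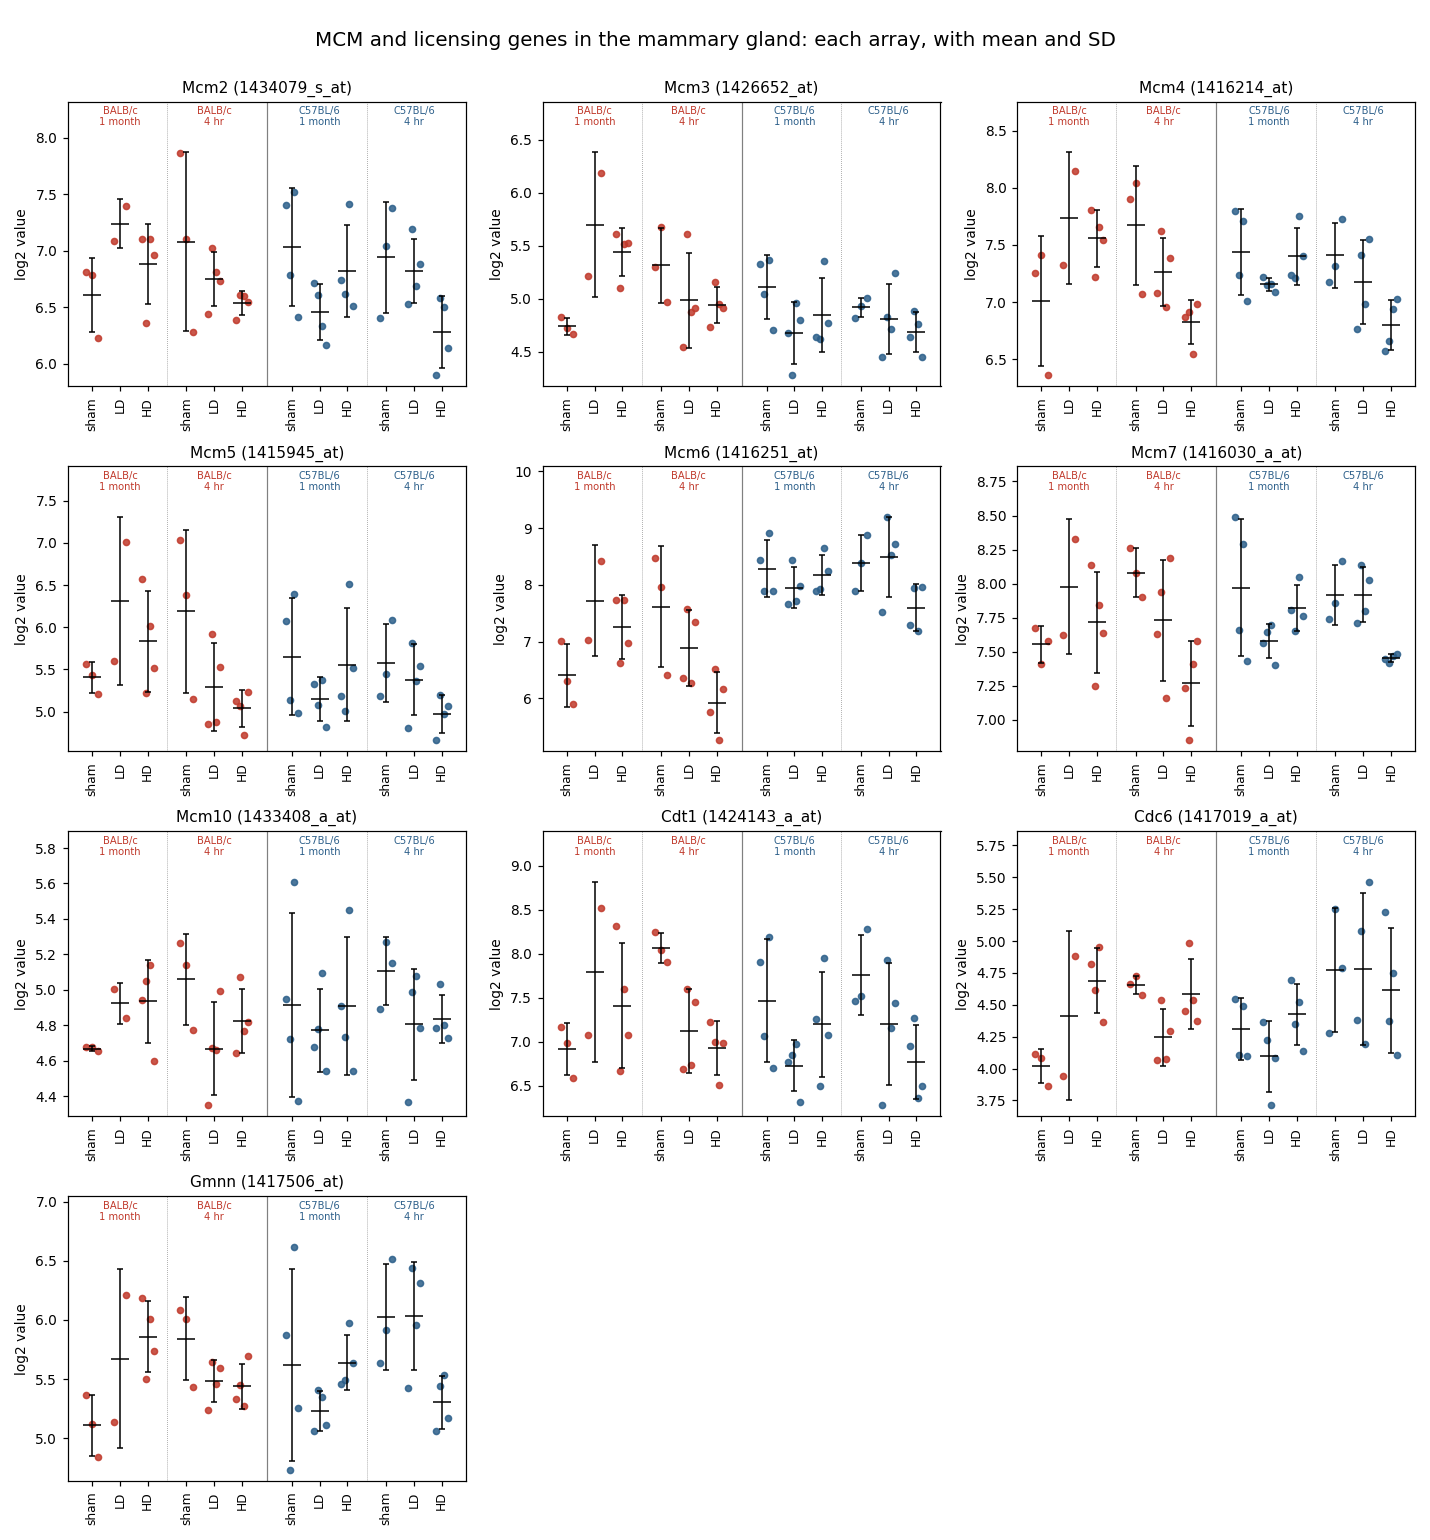
Log2 value of each of the 10 members, at its probe set with the highest MG mean, in every MG array (points), with the mean and SD of each group (horizontal mark and bar), by strain, time and dose. In BALB/c at 4 hr the HD arrays of Mcm4, Mcm7 and Cdt1 lie below all sham arrays, and in BALB/c at 1 month 1 of the 2 LD arrays is the highest of its time for 8 of the 10 genes.

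At 1 month the order of the BALB/c groups was another one, and the sham glands of that time had low values. Mcm6 had 7.01, 6.30 and 5.91 in sham glands at 1 month, against 8.47, 7.96 and 6.41 in sham glands at 4 hr (difference -1.21, SE 0.52, adjusted p = 0.728). Cdt1 had 7.17, 6.99 and 6.59 in sham glands at 1 month, below all of the 8.24, 8.04 and 7.91 at 4 hr (difference -1.15, SE 0.38, adjusted p = 0.645). Gmnn had 5.36, 5.12 and 4.84 at 1 month and 6.08, 6.01 and 5.44 at 4 hr (difference -0.73, SE 0.24, adjusted p = 0.645). The median of the 16 probe sets between the 2 sham times was -0.63, against -0.01 over all, 15 were below 0, 8 were apart with 1 month lower, against 5.85% of all, and 9 were lower at an unadjusted p under 0.05, against 3.54%. None was called, as was no other probe set (0%). Comparisons with sham at either time therefore rest on 3 arrays each whose members' values differed between the times.

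LD glands at 1 month in BALB/c had higher values than sham, on only 2 arrays that differed widely. The median was 0.61, against 0.02 over all probe sets, and 15 of 16 probe sets were above 0, as were 55.3% of all. None was called (0% of all), 5 were higher at an unadjusted p under 0.05, against 4.39% of all, and the looser rule took 9 as higher, against 0.491%. Groups were apart with LD higher in 6 probe sets, against 14.7% of all. Mcm6 had 7.03 and 8.42 in LD and 7.01, 6.30 and 5.91 in sham arrays (difference 1.32, SE 0.58, adjusted p = 0.697). Mcm3 had 5.22 and 6.19 in LD and 4.83, 4.72 and 4.67 in sham arrays (difference 0.96, SE 0.28, adjusted p = 0.57). Mcm2 at 1448777_at had 6.03 and 7.49 in LD and 5.49, 5.51 and 4.75 in sham arrays (difference 1.51, SE 0.45, adjusted p = 0.57). In each case both LD arrays were above all sham arrays, and replicate 2 was far above replicate 1. Cdt1 had 7.07 and 8.52 in LD arrays, the lower within the sham range of 6.59 to 7.17 (difference 0.88, SE 0.43, adjusted p = 0.725). The mean over the 10 genes was 6.11 in LD replicate 1 and 6.99 in replicate 2, the highest of the 43 MG arrays. Without replicate 2 the median of the 16 differences was 0.19, and without replicate 1 it was 1.04.

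HD glands at 1 month in BALB/c had a median of 0.46 over the 16 probe sets, 14 of them above 0, as were 55.5% of all, and none was called, against 0.0177% of all. The looser rule took Mcm3, Cdc6 and Gmnn as higher, 3 of 16 against 0.309% of all. Gmnn had 6.18, 5.50, 6.01 and 5.74 in HD and 5.36, 5.12 and 4.84 in sham arrays (difference 0.75, SE 0.22, adjusted p = 0.22). Cdc6 had 4.82, 4.62, 4.95 and 4.37 in HD and 4.11, 4.09 and 3.87 in sham arrays (difference 0.67, SE 0.19, adjusted p = 0.212). Mcm3 had 5.61, 5.10, 5.52 and 5.53 in HD arrays, above all 3 sham arrays (difference 0.70, SE 0.24, adjusted p = 0.284). In these 3 probe sets the groups were apart, against 5.3% of all. HD replicate 1 held lymphocyte transcripts, with a mean of 6 B cell markers 3.19 above the median array, while the sham arrays lay between -0.12 and 0.23. Its T cell list was 3.07 above the median array, against 0.00 at most in the other HD arrays. It was the highest HD array for 8 of the 10 members, and without this array and replicate 3, which held muscle transcripts, the median was 0.10. The luminal list lay between -1.24 and -0.35 in HD and between 0.02 and 0.09 in sham arrays at 1 month. The part of these cells in the members' values was not tested. Between HD and LD at 1 month the median was -0.22 with 12 of 16 below 0 and none called (0.00884% of all), and at an unadjusted p under 0.05 the members' count was 0.

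**Figure D3:**
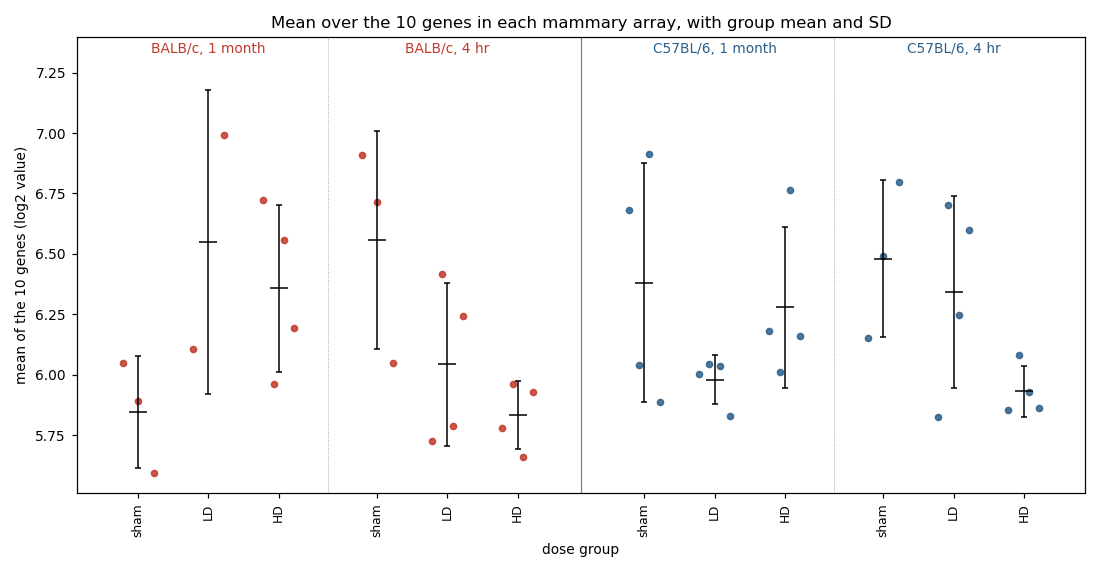
Mean of the log2 values of the 10 members in every MG array (points), with group mean and SD, by strain, time and dose. In BALB/c the means were 5.84, 6.55 and 6.36 for sham, LD and HD at 1 month, and 6.56, 6.04 and 5.83 at 4 hr.

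In C57BL/6 most members also had lower values than sham at 4 hr after HD, and none was called. The median was -0.58, with 14 of 16 probe sets below 0, and 0.716% of all probe sets were called. At an unadjusted p under 0.05, 9 were lower, against 7.47% of all, and 7 were apart with HD lower, against 6.83%. Mcm4 had 6.57, 6.66, 6.94 and 7.03 in HD and 7.18, 7.32 and 7.73 in sham arrays (difference -0.61, SE 0.20, adjusted p = 0.178). Mcm2 at 1448777_at had 5.22, 5.65, 4.88 and 5.14 in HD and 5.91, 6.20 and 6.83 in sham arrays (difference -1.10, SE 0.37, adjusted p = 0.189). These groups did not overlap, and Mcm2 and Mcm4 were the 2 probe sets that the looser rule took, against 1.28% of all. Cdt1 at 1424143_a_at had 6.95, 7.27, 6.35 and 6.50 in HD and 7.47, 7.52 and 8.28 in sham arrays (difference -0.99, SE 0.38, adjusted p = 0.265). Gmnn had 5.07, 5.44, 5.54 and 5.17 in HD and 5.64, 5.91 and 6.52 in sham arrays (difference -0.72, SE 0.31, adjusted p = 0.335). Mcm7 had 7.45, 7.41, 7.47 and 7.48 in HD and 7.74, 7.86 and 8.16 in sham arrays (difference -0.47, SE 0.18, adjusted p = 0.27). All 3 were apart, and the 4 HD arrays of Mcm7 lay close together. Mcm6 had 7.30, 7.94, 7.19 and 7.97 in HD and 7.89, 8.38 and 8.89 in sham arrays, with an overlap (difference -0.79, SE 0.34, adjusted p = 0.326). The luminal list lay between -0.82 and -0.14 in HD and between -0.09 and 0.13 in sham arrays, and the myoepithelial list between -0.82 and -0.32 in HD and between -0.23 and 0.29 in sham arrays. Erythroid markers ran the other way, between 0.11 and 0.31 in HD and between -0.10 and 0.0 in sham arrays. The part of these lists in the members' values was not tested.

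At 4 hr after LD in C57BL/6 the median was -0.12, with 10 of 16 below 0, none called (0% of all) and 1 probe set, of Mcm3, lower at an unadjusted p under 0.05, against 2.02% of all. The interval of the difference for Mcm6 was -0.60 to 0.81 and for Cdt1 -1.35 to 0.25. Both hold 0, and a true difference anywhere within these bounds was not excluded. HD against LD at 4 hr gave a median of -0.39, 14 of 16 below 0 and none called, against 1.43% of all, with 4 lower at an unadjusted p under 0.05, against 11% of all. That median was -0.09 when the plate column was fitted as a covariate. Only Mcm7 was apart there, 1 probe set against 5.03% of all, with HD arrays of 7.41 to 7.48 and LD arrays of 7.71, 8.14, 7.80 and 8.03 (difference -0.47, SE 0.17, adjusted p = 0.15). At 1 month after LD, all 16 probe sets were below 0 in C57BL/6, with a median of -0.36, none called (0% of all) and 5 lower at an unadjusted p under 0.05, against 7.42% of all. Cdt1 had 6.77, 6.85, 6.97 and 6.31 in LD and 7.91, 7.07, 8.19 and 6.70 in sham arrays, which overlapped (difference -0.74, SE 0.36, adjusted p = 0.391). The mean over the 10 genes had an SD of 0.10 in LD and 0.49 in sham arrays at that time. The myoepithelial list lay between -0.29 and 0.04 in LD and between 0.15 and 0.89 in sham arrays, and its part in these values was not tested. At 1 month after HD the median was -0.10, 12 of 16 were below 0 and none was called, against 0.915% of all, and none passed an unadjusted p of 0.05 either. HD against LD at 1 month had a median of 0.29, 14 of 16 above 0 and none called (0% of all; none at an unadjusted p under 0.05). That median was 0.01 with the plate column as a covariate and 0.15 without HD replicate 3, the array with lymphocyte transcripts. Sham glands of C57BL/6 at 1 month and at 4 hr differed by a median of -0.05, with 8 probe sets on either side and none called, against 2.84% of all.

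**Figure D4:**
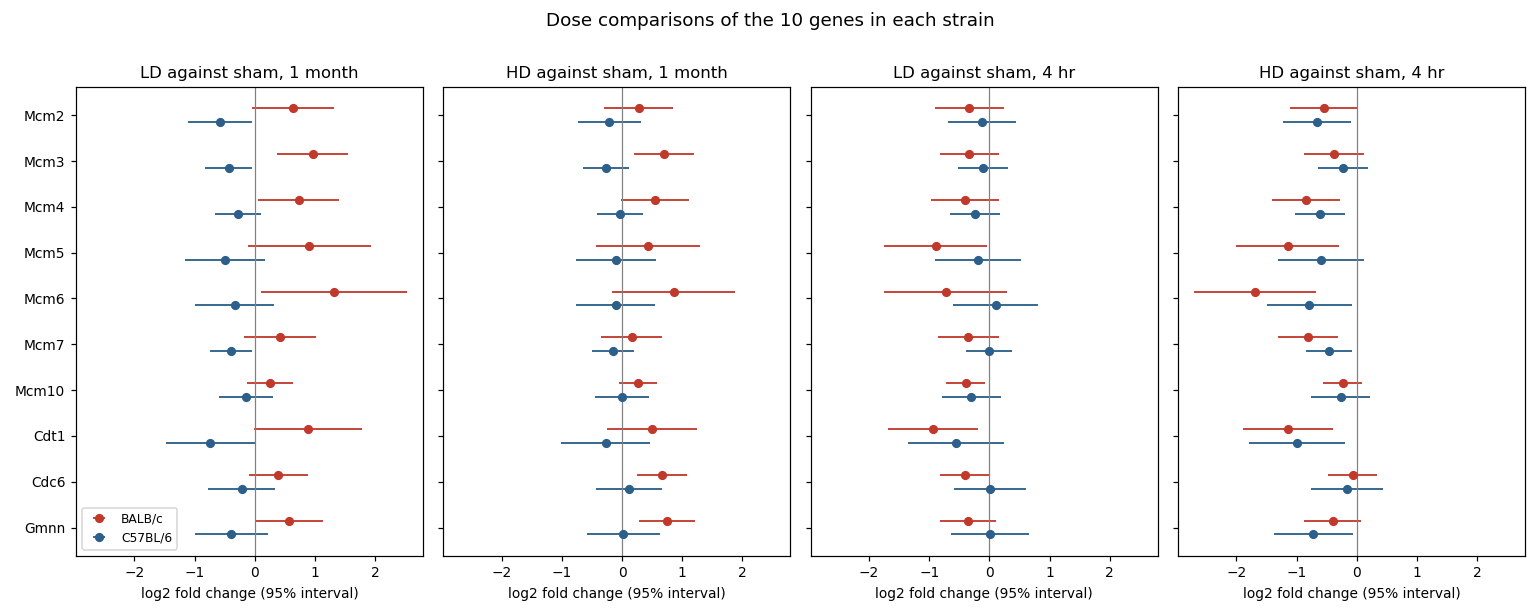
Log2 fold change of each member against sham, at the probe set with the highest MG mean, with its 95% interval, for BALB/c and C57BL/6 in each dose and time. At 4 hr after HD all 10 points lie below 0 in both strains, and at 1 month after LD all 10 lie above 0 in BALB/c and below 0 in C57BL/6.

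The difference between the strains in these responses was tested over all 43 MG arrays, and no member was called in any of 4 tests, nor was any other probe set (0% in each). For HD at 4 hr the median of BALB/c minus C57BL/6 responses was -0.15, with 5 above and 11 below 0. It was -0.37 without BALB/c sham replicate 3, -0.01 without BALB/c sham replicate 1 and 0.02 without the arrays that held other tissues, so its direction depends on these arrays. Mcm6 had the largest such difference, -0.90 (95% interval -2.14 to 0.34). For LD at 4 hr the median was -0.22 and all 16 were below 0. For LD at 1 month all 16 were above 0 with a median of 0.98, and 11 were above 0 at an unadjusted p under 0.05, against 5.4% of all. Mcm3 at 1426652_at had the smallest p there, with a difference of 1.39 (SE 0.34, adjusted p = 0.251), and Mcm2 at 1448777_at had the largest difference, 2.02 (SE 0.59, adjusted p = 0.367). This test rests on the 2 BALB/c LD arrays, and the median was 0.56 without replicate 2 and 1.40 without replicate 1. For HD at 1 month all 16 were above 0 with a median of 0.54, and 1 had an unadjusted p under 0.05, against 2.91% of all.

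Whether a response differed between 1 month and 4 hr within a strain was asked after the first results were known. In BALB/c the response to HD was higher at 1 month than at 4 hr in 14 of 16 probe sets, with a median of 1.09, and 14 had an unadjusted p under 0.05, against 5.14% of all. None was called, against 0.0707% of all. Mcm6 differed by 2.54 between the times (SE 0.68, adjusted p = 0.315) and Cdt1 at 1424144_at by 1.72 (SE 0.40, adjusted p = 0.23). Both parts of this difference hold the sham arrays of their time, whose own difference is given above. Between the HD groups alone, without sham arrays, the median was 0.48 with 15 of 16 higher at 1 month and none called, against 2.27% of all. It was 0.31 without HD 1 month replicate 1 and 0.20 without the arrays that held other tissues. Mcm6 had 7.73, 6.62, 7.73 and 6.97 at 1 month and 5.76, 6.51, 5.26 and 6.16 at 4 hr after HD, apart by a narrow gap (difference 1.34, SE 0.45, adjusted p = 0.112). Mcm4 and Mcm2 at 1448777_at were apart in the same direction, which makes 3 of 16 against 5.08% of all. The response to LD in BALB/c was higher at 1 month in all 16, with a median of 1.0, 12 of them at an unadjusted p under 0.05, against 5.1% of all, and none was called (0%). Between the LD groups alone the median was 0.44 with none called (0%), and 0.09 without LD 1 month replicate 2. In C57BL/6 the HD glands at 1 month were higher than at 4 hr in 13 of 16 probe sets, with a median of 0.36 and none called, against 1.15% of all. Replicate 3 at 1 month, the array with lymphocyte transcripts, was the highest of its group for 9 of the 10 members, and the median was 0.24 without it and 0.10 when the plate column was fitted too. The response to HD in C57BL/6 was higher at 1 month in 13 of 16, with a median of 0.38 and none called, against 0.0398% of all. Mcm4 had 7.24, 7.21, 7.75 and 7.40 at 1 month and 6.57, 6.66, 6.94 and 7.03 at 4 hr after HD, 1 of 3 probe sets that were apart, against 5.6% of all (difference 0.60, SE 0.18, adjusted p = 0.104). The LD glands of C57BL/6 ran the other way. At 1 month they were lower than at 4 hr in 15 of 16 probe sets, with a median of -0.31, none called (0%) and 3 apart, against 3.89% of all, and the median was -0.02 when the plate column was fitted too. Gmnn had 5.06, 5.41, 5.35 and 5.12 at 1 month and 5.42, 6.44, 5.95 and 6.32 at 4 hr after LD (difference -0.80, SE 0.29, adjusted p = 0.24), which were apart. The response to LD in C57BL/6 was lower at 1 month in 13 of 16, with a median of -0.27 and none called (0%), and that median was 0.03 with the plate column and -0.06 without sham 1 month replicate 3.

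Mcm6 was the member with the widest difference between the strains. In sham glands it was lower in BALB/c (difference -1.33, SE 0.32, 95% interval -2.03 to -0.62, adjusted p = 0.0224), in a fit of the 13 sham arrays with both times. It was the 1 probe set of 16 called, where 9.14% of all probe sets were called and 4.65% as lower in BALB/c. At 1 month its values were 7.01, 6.30 and 5.91 in BALB/c sham and 8.44, 7.89, 8.92 and 7.88 in C57BL/6 sham glands, which were apart. At 4 hr they were 8.47, 7.96 and 6.41 in BALB/c sham and 7.89, 8.38 and 8.89 in C57BL/6 sham glands, which overlapped. Leaving out replicate 3 of the C57BL/6 sham glands of 4 hr ended the call (-1.20, adjusted p = 0.0596), as did leaving out replicate 3 of the BALB/c sham glands of 1 month (-1.20, adjusted p = 0.056).

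Irradiated arrays, which the sham comparison did not use, were then compared between the strains, by a choice made after the sham result was known. After HD, Mcm6 was lower in BALB/c (difference -1.29, SE 0.21, adjusted p = 5.94e-04), with 7.73, 6.62, 7.73 and 6.97 in BALB/c and 7.89, 7.93, 8.65 and 8.24 in C57BL/6 at 1 month. At 4 hr it had 5.76, 6.51, 5.26 and 6.16 in BALB/c and 7.30, 7.94, 7.19 and 7.97 in C57BL/6 after HD. The strains were apart at both times. After LD the difference was -0.92 (SE 0.31, adjusted p = 0.0706) and not called, with 7.03 and 8.42 in BALB/c and 7.66, 8.45, 7.71 and 7.98 in C57BL/6 at 1 month. At 4 hr after LD the values were 6.35, 7.57, 6.27 and 7.35 in BALB/c and 7.52, 9.20, 8.53 and 8.72 in C57BL/6, with an overlap of 1 array in each. Taken by dose and time, BALB/c had the lower mean of Mcm6 in 6 of 6 groups, with differences of -1.88 to -0.23, and other members were lower in BALB/c in 1 to 4 of the 6. The other call in HD glands was Mcm3 at 1426652_at, higher in BALB/c by 0.43 (SE 0.11, adjusted p = 0.0207), while its second probe set differed by 0.08 (SE 0.17, adjusted p = 0.819). The 2 calls in HD glands stand against 13% of all probe sets, and the 0 calls in LD glands against 12.2%, with 5 members higher and 1 lower at an unadjusted p under 0.05, against 14.7% and 11% of all. The irradiated arrays of each strain were on the same plate as its sham arrays, so plate and strain cannot be told apart here either. Mcm6 has a single probe set, and whether a base difference between the strains lies under its probes was not tested.

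**Figure D5:**
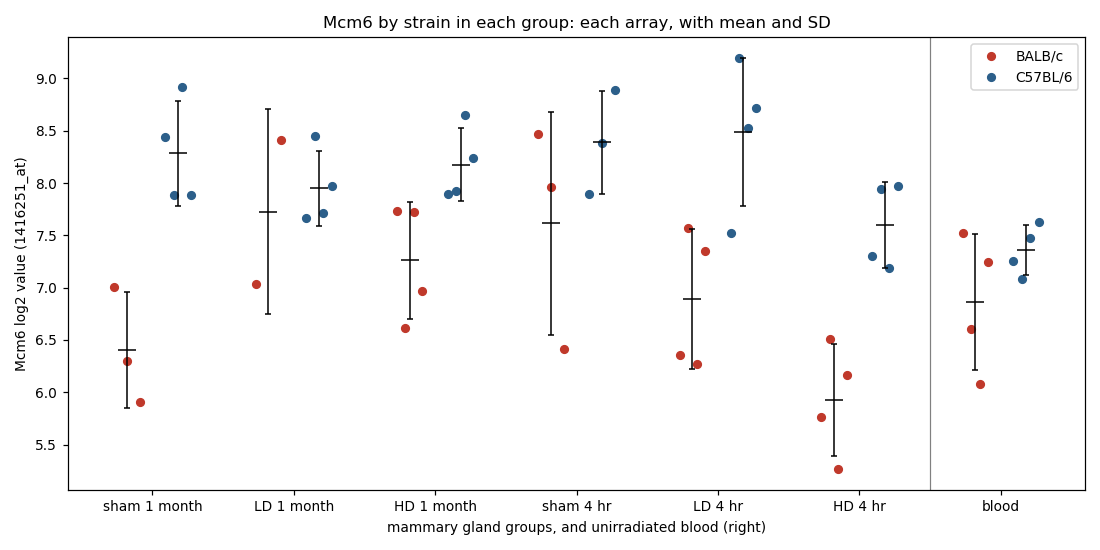
Mcm6 log2 value in every array (points) of BALB/c and C57BL/6, with group mean and SD, by dose and time in the mammary gland and in unirradiated blood. The BALB/c mean is below the C57BL/6 mean in each group, and the strains are apart in sham 1 month, HD 1 month and HD 4 hr.

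In blood, where both strains shared a plate, no member was called between them. Of 16 probe sets 12 were higher in BALB/c, as were 54.8% of all, with a median of 0.14 against 0.02 over all probe sets, and none was called, against 0.482% of all, or had an unadjusted p under 0.05. Leaving out replicate 2 of BALB/c blood gave a median of 0.34, leaving out its replicate 4 gave 0.02, and leaving out the 2 arrays that held liver transcripts gave 0.29. Mcm6 had 7.52, 6.60, 6.08 and 7.24 in BALB/c and 7.26, 7.08, 7.48 and 7.63 in C57BL/6 blood (difference -0.50, SE 0.31, 95% interval -1.21 to 0.22, adjusted p = 0.79). The groups overlapped, and the interval holds 0. Cdt1 at 1424143_a_at had 9.25, 9.01, 8.99 and 9.23 in BALB/c and 8.98, 9.20, 9.07 and 7.33 in C57BL/6 blood. The last array stood far below the others and was the one with liver transcripts (difference 0.47, SE 0.40, adjusted p = 0.848). Mcm7 at 1416030_a_at had 7.75, 7.23, 7.0 and 7.65 in BALB/c and 6.70, 6.56, 7.12 and 7.63 in C57BL/6 blood (difference 0.40, SE 0.27, adjusted p = 0.812).

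Within groups the members varied more from mouse to mouse than most probe sets. The median within-group SD was 0.36 over the 16 member probe sets and 0.17 over all probe sets, and Mcm6 had the widest, 0.60, larger than that of 98.1% of all probe sets. The standard errors of the members were accordingly about 0.25 at the median in BALB/c dose comparisons at 4 hr, against 0.13 for all probe sets. This variation was shared. With group means removed, all 45 pairs of the 10 genes had a positive correlation over the 43 MG arrays, between 0.27 and 0.85 with a median of 0.63. Mcm5 and Mcm6 were the closest pair (r = 0.85), and Mcm5 had the highest median with the other members (r = 0.83). Cdc6 (median r = 0.42) and Mcm10 (median r = 0.54) had the lowest. Both had low signals, above only 23.8% and 32.25% of all probe sets in MG, and the part of this was not tested. These arrays share plates and tissue makeup, so the values are a description of the libraries. Probe sets of 1 gene varied together for Cdt1 at 1424143_a_at and 1424144_at (r = 0.87), for Mcm2 (r = 0.77), for Mcm7 (r = 0.76) and for Mcm3 (r = 0.62). They did not for Mcm10 (r = -0.00) or for Cdt1 at 1455791_at with the other sets (r = 0.24 and 0.23). These dim sets, 1433407_at of Mcm10 and 1455791_at of Cdt1, had within-group SDs of 0.12 and 0.16.

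Of 11797 other named genes, those whose values followed the mean of the members most closely over the 43 MG arrays, with strain means removed, were Lig1 (r = 0.93), which encodes the ligase that joins Okazaki fragments, Uhrf1 (r = 0.93), which maintains DNA methylation at the fork, and Chek1 (r = 0.90), a checkpoint kinase. Rrm2 (r = 0.89) and Tk1 (r = 0.88), which supply deoxynucleotides, Tcf19 (r = 0.88), Rfc5 (r = 0.87), a subunit of the clamp loader, and Topbp1 (r = 0.86), a factor of origin firing, came next, and 24 genes had r over 0.8. By list, genes of origin firing (r = 0.84) and a proliferation list (r = 0.83) followed the members, and the origin recognition complex (r = 0.21) and cell cycle inhibitors (r = -0.17) followed them little. Single genes of the origin recognition complex ranged from r = -0.30 for Orc2 to r = 0.55 for Lrwd1. Of 4 genes listed as MCM relatives and binders, Hells, a chromatin remodeller that is no MCM protein, followed the members (r = 0.84), while Mcmbp (r = 0.42), Mcm3ap (r = 0.14) and Mcm9 (r = -0.18) did so less. Mcm9 and Orc1 were read at dim probe sets, with MG means of 3.95 and 3.98, so their low correlations cannot be told from a lack of signal. Prkdc, which lies head to head with Mcm4 on chromosome 16, did not follow the members (r = 0.03), and none of its differences with dose was called.

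Other genes of the pathway were counted in the same comparisons. Among 7 proliferation genes, including Mki67, Top2a and Birc5, 0 were called in any dose comparison, and the list median was -1.41 for HD and -0.76 for LD in BALB/c at 4 hr, with 7 of 7 below 0 each time. Mki67, a marker of cycling cells, differed by -1.84 after HD in BALB/c (SE 0.63, adjusted p = 0.0944). In C57BL/6 the list median was -0.85 for HD and 0.18 for LD at 4 hr, and 0.05 for HD and -1.06 for LD at 1 month. In BALB/c at 1 month it was 0.22 for LD, with 7 of 7 above 0, and 0.64 for HD, with 6 of 7 above 0. Among 9 genes of origin firing, 0 were called with dose. Their list median after HD in BALB/c at 4 hr was -0.15, with 7 of 9 below 0. Cdc7, the kinase that activates the loaded ring, differed by more than that median, by -0.66 (SE 0.20, adjusted p = 0.067). The 6 measured genes of the origin recognition complex, to which the ring is recruited, had list medians between -0.07 and 0.17 in the 8 comparisons with sham, and 0 were called.

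Among inhibitors of the cell cycle the clearest change was that of 1 gene. Cdkn1a, which encodes p21 and blocks the kinases of S phase entry, rose at 4 hr after HD by 3.36 in BALB/c (SE 0.31, adjusted p = 6.17e-06) and by 2.54 in C57BL/6 (SE 0.42, adjusted p = 0.0029). After LD at 4 hr it differed by 0.31 in BALB/c (adjusted p = 0.787) and by 0.28 in C57BL/6 (adjusted p = 0.997). HD exceeded LD at 4 hr by 3.05 in BALB/c (adjusted p = 6.97e-06) and by 2.26 in C57BL/6 (adjusted p = 0.00448). Of the 7 inhibitors, 1 other was called with dose, Cdkn1c, which encodes p57 and fell by 0.86 in BALB/c HD at 4 hr (SE 0.20, adjusted p = 0.0208). Among 10 genes of the E2F and Rb family, Tfdp1, an E2F partner, fell by 0.37 in the same comparison (adjusted p = 0.0458), and the list median was 0.05. In that comparison 5.14% of all probe sets were called, and the median of the 7 inhibitors was 0.19. For HD in C57BL/6 at 4 hr 0.716% of all were called, and the inhibitor median was 0.14. In sham glands, where 9.14% of all probe sets were called between the strains, 1 of 6 genes of the origin recognition complex, 2 of 7 inhibitors, 1 of 10 E2F and Rb genes and none of the other listed genes were called. These were Orc6, a subunit of the origin recognition complex that was lower in BALB/c (difference -0.61, adjusted p = 0.0125), Cdkn1a (difference -0.85), Cdkn2b (difference 0.56) and E2f6 (difference 0.26).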

How the data were processed

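The authors deposited the values of 51 Affymetrix HT_MG-430A arrays on the log2 scale after RMA, per the submitters' processing notes, which name RMA and limma without versions. These log2 values were used without a further step. Probe sets were named through the platform annotation: 18003 had 1 symbol, 287 had several and 4336 had none, and all were tested. Positions and promoters came from RefSeq tables of GRCm38.p6.

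Comparisons were contrasts of group means in limma 3.58.1 (R 4.3.3) with moderated variances over all 22626 probe sets and Benjamini-Hochberg adjustment. Dose and time comparisons used all MG arrays of a strain, strain differences of a response all 43 MG arrays, strain comparisons the sham, LD, HD or blood arrays alone. The looser rule has the thresholds of the study's methods: an absolute log2 fold change over 0.58 and an unadjusted p under 0.1 for LD or 0.01 for HD. The scripts were tested on simulated data. Tables and figures used Python 3.11, pandas 2.3.3 and matplotlib 3.10.9.

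The text names all 10 members, each represented by its probe set with the highest MG mean unless another is given. It also names the 8 other genes closest to the members' mean, pathway genes that were called, and some others for values beside them. Of these others, Mki67, Cdc7 and the 4 MCM relatives and binders were chosen after their values were seen and need not be typical of their lists. Of the listed pathway genes, 6 of 7 (origin recognition), 9 of 13 (origin firing), 4 of 6 (MCM relatives and binders), 11 of 15 (control of the loaders), 10 of 13 (E2F and Rb), 7 of 7 (inhibitors) and 7 of 8 (proliferation) were measured. The members and lists were chosen with earlier results of these data known. The comparisons between times of 1 irradiated group, of responses between times, and of strains in LD and HD glands were added after seeing the data. With 2 to 4 arrays per group, the number of arrays limits the precision.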

Additional observations from a re-analysis of the deposited data

Results flagged for a closer look

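Among 100 sets of 4 arrays of 1 gene in 1 group, 2 held an array far from the other 3 by Dixon's criterion, which chance alone meets in about 1 in 20 sets. Both were the same array, C57BL/6 blood replicate 4. Cdc6 had 4.32 there, the highest of its group, against 3.37 to 3.51 in the other 3 arrays. Cdt1 at 1424143_a_at had 7.33 there, the lowest of its group, against 8.98 to 9.20 in the others. This array also held liver transcripts, and the part of these in the 2 values was not tested. No member's response to a dose was called as different between the strains.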

How the results depend on the processing

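The counts of called members were recomputed with array weights, the plate column as a covariate, arrays centred on their medians, quantile normalization, only brighter probe sets, only the compared groups, another variance model, without the arrays that held other tissues, and without each array in turn. For HD against sham in BALB/c at 4 hr the count of 1 became 7 with array weights, 4 with only brighter probe sets, 2 with only the compared groups, and 0 with the plate column or without arrays that held other tissues. It ranged from 0 to 8 over arrays left out: 0 without HD replicate 3 or 4 or sham replicate 1 or 2, and 8 without sham replicate 3. The setting with only brighter probe sets leaves out Cdt1 at 1424144_at, so the 4 calls there were of other probe sets. Over the remaining settings 1424144_at lay between -1.27 and -1.0, with adjusted p between 0.0173 and 0.278. Probe set 1455791_at in its place had 0.058 (adjusted p = 0.873). For HD against LD at 4 hr the count of 0 became 1 in BALB/c with only the compared groups, and ranged from 0 to 1 in C57BL/6, with 1 without LD replicate 1. In sham glands the count between strains ranged from 0 to 1 over arrays left out. In LD glands the count of 0 became 1 with the plate column or without arrays that held other tissues, and ranged from 0 to 4, with 4 without BALB/c LD 1 month replicate 1. In HD glands the count of 2 became 1 with only brighter probe sets or without arrays that held other tissues, where Mcm3 missed the threshold (0.40, adjusted p = 0.077), and ranged from 2 to 3. Mcm6 was called in HD glands under all 25 settings, between -1.50 and -1.18, and in sham glands under 20 of 22. With the plate column, the median was -0.65 for LD at 4 hr and -0.70 for HD at 1 month in C57BL/6. Without BALB/c LD 1 month replicate 2 the median of HD against LD at 1 month was 0.23. The response to HD in BALB/c, 1 month minus 4 hr, had a median of 0.66 without arrays that held other tissues, and that to LD had 1.36 without sham 4 hr replicate 3 and 1.46 without LD 1 month replicate 1. Other medians that moved over 1.5 times included that for LD at 4 hr in BALB/c (-0.63 without sham replicate 3, -0.19 without arrays that held other tissues), for HD at 4 hr in BALB/c (-0.41 without sham replicate 1 or without arrays that held other tissues), for HD at 1 month in BALB/c (0.24 without HD replicate 1), and in C57BL/6 for LD at 4 hr (-0.29 without sham replicate 1, 0.005 without LD replicate 1), HD against LD at 4 hr (-0.23 without LD replicate 2), LD at 1 month (-0.22 without sham replicate 3, -0.66 with the plate column), HD at 1 month (-0.25 without sham replicate 4, 0.01 without sham replicate 3) and sham glands between times (-0.24 without 1 month replicate 3, 0.05 without 1 month replicate 4). That of BALB/c minus C57BL/6 responses was -0.45 without BALB/c sham 4 hr replicate 3 and -0.09 without arrays that held other tissues for LD at 4 hr, and 0.35 without those arrays for HD at 1 month. The response to HD in C57BL/6, 1 month minus 4 hr, had medians of 0.22 to 0.60 over arrays left out. Between the LD groups of BALB/c the median reached 0.78. Between the strains the median of -0.13 in sham glands became -0.23 to -0.05 over arrays left out. In LD glands 0.14 became 0.07 to 0.35, and in HD glands 0.10 became 0.04 to 0.14, with -0.02 as the lowest under other settings. Why the values moved was not tested.

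Arrays that share a replicate number share only the number: the mean correlation of their residuals was 0.0145 in BALB/c, 0.0124 in C57BL/6 and -0.128 in blood, against -0.0052, -0.0041 and 0.0507 for other arrays. With the replicate block, the count for HD against sham in BALB/c at 4 hr was 0 (Cdt1 -1.08, adjusted p = 0.066) and that between strains in LD glands was 2, and no other count moved.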
